A study of Drosophila melanogaster with 4 samples.

Results

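The data are the Chromator-enriched regions of the X chromosome in Drosophila melanogaster embryos, as listed by the authors from chromatin immunoprecipitation and sequencing (ChIP-seq). Every region of the combined list, the 1 list made for the set of both ChIP replicates, was taken if its sequence name was X. This gave 1059 of the 5762 regions of that list. The study had 4 samples, 2 Chromator ChIP samples made with the antibody labelled WR and 2 input samples, all from embryos of the wild-type strain Oregon-R, aged 14 to 16 hours and fixed with 1.8% formaldehyde. Whole embryos were used, so the lists pool all cell types of that stage. Each ChIP sample also has a list of its own, with 747 X regions in replicate 1 and 726 in replicate 2. Separate embryo collections are not stated for the replicates, whose spread may then be technical, and with 2 ChIP samples nothing was tested between samples. The counts and correlations below describe regions of 1 chromosome, which are not replicates.

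Chromator, also called Chriz, is a chromodomain protein of the interbands of polytene chromosomes, the open, decondensed stretches between the compact bands. It is known to bind there together with the zinc finger protein Z4 and to help recruit the histone kinase JIL-1. Interbands often hold the promoters of broadly active genes, and Chromator is also known from the borders of chromatin domains. Coordinates are those of FlyBase release 5, in which the X runs from position 1 at the telomere side to 22422827 at the centromere side. No genome or annotation of that release was used here, so a region is given by its position alone, with no gene, exon or sequence.

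The X regions of the combined list covered 2.36 Mb, or 10.5% of the declared X, at 47.2 regions per Mb. Their width had a median of 2157 bp (quartiles 1509 to 2555) and ranged from 1001 to 10041 bp. Each region carries 1 score by the authors, which on the evidence of its values is the log2 of a ratio. The X scores ranged from 0.31 to 2.67, with a median of 0.73 (quartiles 0.56 to 1.07). The median corresponds to a ratio of 1.66. The replicate lists covered 1.76 Mb (7.84% of the X) in replicate 1 and 1.67 Mb (7.43%) in replicate 2, with median widths of 2178 and 2158 bp. Depth behind the lists is unknown, since they give no read totals.

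Of the 1059 X regions, 648 were overlapped by at least 1 bp by a region of each replicate list, which is 61.2% (Wilson 95% interval 58.2 to 64.1, for counting error only). Another 69 were overlapped by replicate 1 alone and 45 by replicate 2 alone. The remaining 297, or 28.0% (25.4 to 30.8), were overlapped by neither list. The combined list comes from the same samples as the replicate lists, so this overlap is no independent evidence of binding.

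The regions lay along the whole X in alternating full and thin stretches. No slope ran steadily from telomere to centromere, but the centromere-side end was thin in all 3 lists. Over the 22 full windows of 1 Mb, the number of regions had a median of 48.5 and ranged from 28 to 74 (47.9 ± 11.8, SD over windows). The fullest window was the one from 15000001 to 16000000 with 74 regions, 53 regions in replicate 1 and 53 in replicate 2. The window from 11000001 to 12000000 followed with 64 regions (50 in replicate 1 and 49 in replicate 2), and the one from 1000001 to 2000000 with 63 (46 in each replicate list). These 3 windows lay far apart, 1 near the telomere, 1 close to the middle and 1 toward the centromere. The emptiest was the window from 20000001 to 21000000 with 28 regions, 21 in replicate 1 and 22 in replicate 2. Next came 21000001 to 22000000 with 33 regions (27 and 22 in the replicate lists) and 14000001 to 15000000 with 34 (17 and 16). The last of these, with its 34 regions, borders the fullest window, with its 74, directly. Both full windows from 20000001 on were below the window median in each list (48.5 combined, 32.5 in replicate 1, 30 in replicate 2). The partial window from 22000001 to 22422827 held 5 regions, with 3 in each replicate list.

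**Figure D1:**
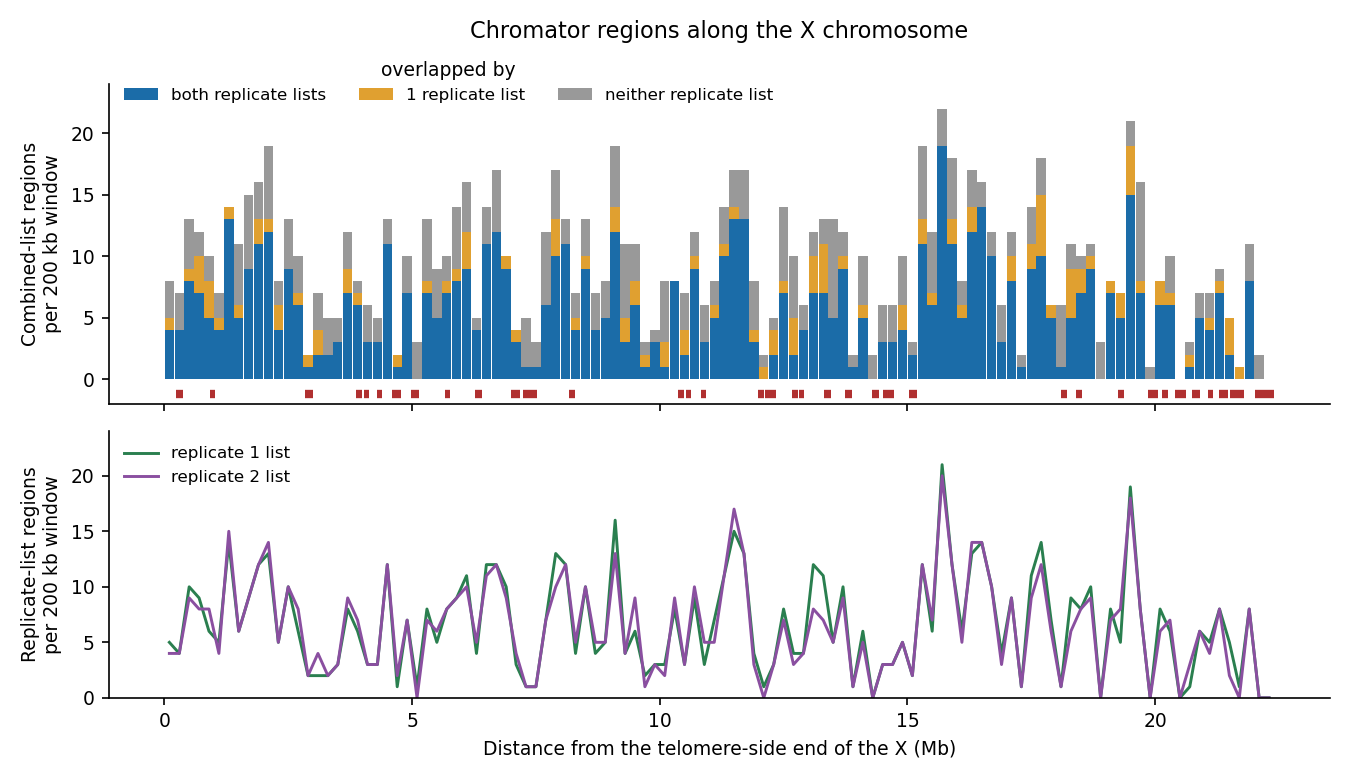
Number of Chromator regions in each full 200 kb window along the X, plotted at the distance in Mb from the telomere-side end. The upper panel stacks the combined-list regions by the replicate lists that overlap them, with gaps of at least 100 kb as red marks below the axis, and the lower panel shows the replicate lists. Both replicate lines peak in the window centred at 15.7 Mb, and the replicate 1 line is at 0 in 6 windows and the replicate 2 line in 9, including those centred at 20.5 and 22.3 Mb, where the combined list is also at 0.

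When the X was divided into 3 equal parts of 7.47 Mb, the combined list had 47.9 regions per Mb in the telomere-side part, 46.8 in the middle part and 47.0 in the centromere-side part. The telomere-side part thus had 0.94 regions per Mb more than the centromere-side part. The same difference was -2.41 in the replicate 1 list and 0 in the replicate 2 list, so the lists did not share a direction. Unlike the 3 parts, windows of 200 kb differed widely in their counts. The 112 full windows held from 0 to 22 regions, with a median of 9.5, and the variance of their counts was 2.70 times the mean. The ratio was 3.00 for replicate 1 and 2.90 for replicate 2. The window from 15600001 to 15800000 was the fullest of this size with 22 regions, 19 of them overlapped by both replicate lists. The window from 19400001 to 19600000 had 21, of which 15 were overlapped by both. Both windows with no region, 20400001 to 20600000 and 22200001 to 22400000, were empty in all 3 lists.

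The ends of the map differed from each other. The first 1 Mb at the telomere side held 50 regions (34 in replicate 1 and 33 in replicate 2), and the last 1 Mb at the centromere side held 22 (17 and 13). At the telomere side the first region began at 13226, and the first one overlapped by both replicate lists lay at 22622 to 24874 with a score of 0.95. At the centromere side the last 300 kb held 3 regions, all in its final 100 kb. They lay at 22405710 to 22407994, 22408106 to 22410658 and 22414084 to 22416432, with scores of 0.57, 1.51 and 1.18. All 3 were overlapped by both replicate lists, where they scored 0.65, 1.45 and 1.14 in replicate 1 and 0.89, 1.76 and 1.20 in replicate 2. The middle one ranks among the strongest regions of the X and lay 111 bp from the first, which has 283 kb without any region on its telomere side.

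Scores had no gradient along the X. Spearman's rho between position and score was 0.032 over the 1059 regions and 0.068 over the 648 regions overlapped by both replicate lists. It was 0.028 in the replicate 1 list and 0.075 in the replicate 2 list. These are correlations across regions that share the same libraries. The median score of regions overlapped by both lists ranged from 0.83 to 1.11 over the full 1 Mb windows (0.99 ± 0.08, SD over 22 windows). It was highest from 11000001 to 12000000 at 1.11, a window that was also among the fullest. It was nearly as high from 20000001 to 21000000 at 1.10, the emptiest window of the X. It was lowest from 4000001 to 5000000 at 0.83 and from 8000001 to 9000000 at 0.86. In the replicate lists themselves, the window medians lay between 0.85 and 1.15 for replicate 1 and between 0.92 and 1.18 for replicate 2. Over the 22 windows, rho between the number of regions and the median score of those overlapped by both was 0.25.

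**Figure D2:**
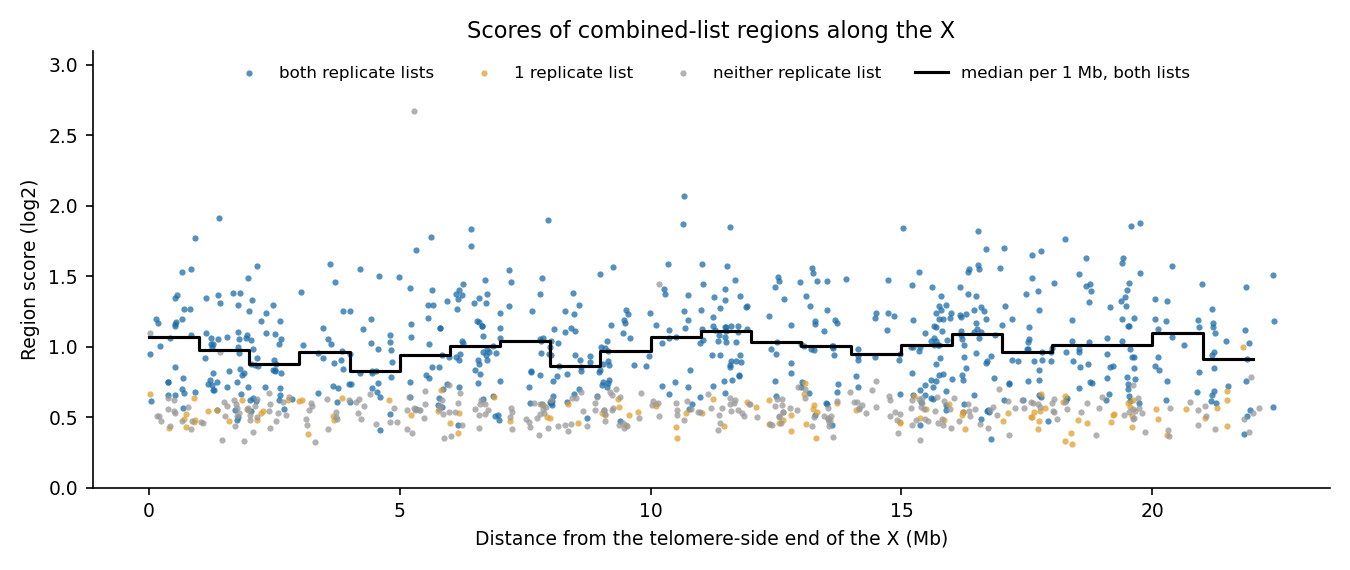
Score (log2) of each combined-list X region against its distance in Mb from the telomere-side end, coloured by the replicate lists that overlap it. The black line is the median per 1 Mb window of regions overlapped by both lists, which stays between 0.83 and 1.11, and the single grey point at 2.67 is the highest score of the X, in a region that neither replicate list has.

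The score of a region was almost unrelated to that of its neighbour. Between each region and the next one along the X, rho was 0.054 for all regions (1058 neighbouring pairs) and 0.063 for those overlapped by both lists (647 pairs). The number of other regions within 10 kb had rho = 0.12 with the score over all regions and -0.05 over those overlapped by both.

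The strongest region found in both replicates lay at 10660576 to 10663716, with a width of 3141 bp and a score of 2.07, a ratio of 4.19. It scored 2.18 in replicate 1 and 2.34 in replicate 2 and was the highest X region of both replicate lists. Close to it, at 10637484 to 10640476, lay a region with 1.87, with 1.91 at rank 10 of replicate 1 and 2.13 at rank 2 of replicate 2. That one has a gap of 115 kb on its telomere side and 16.0 kb on the other. The region at 1405816 to 1408244 scored 1.91. It had 2.05 at rank 3 of replicate 1 and 1.78 at rank 11 of replicate 2. The region at 7953754 to 7957054 scored 1.90, with 2.10 at rank 2 of replicate 1 and 1.89 at rank 6 of replicate 2. At 11587852 to 11590360 the scores were 1.85, 1.96 and 1.84, with ranks 7 and 9 in the replicate lists.

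The strong sites recurred along the arm rather than in 1 place. The region at 15032376 to 15034990 scored 1.85 and stood alone, with gaps of 51.2 kb and 151 kb on its sides. Its replicate scores were 1.89 (rank 13 of replicate 1) and 1.93 (rank 5 of replicate 2). The region at 6426290 to 6429152 scored 1.83, with 1.81 (rank 14) and 1.97 (rank 3) in the replicates. At the centromere side, strong regions lay at 19576458 to 19578848 with 1.86 and at 19758624 to 19761318 with 1.88. They ranked 9 and 8 in replicate 1 and 13 and 7 in replicate 2. The second of them had another strong region, 19744844 to 19747328 with 1.52, at a distance of 11295 bp. The region at 16530384 to 16532946 scored 1.82, ranked 4 in replicate 1 and 18 in replicate 2, and had another strong region, 16533400 to 16536008 with 1.58, only 453 bp away. All of these 10 regions were 2391 to 3301 bp wide and were overlapped by a single region of each replicate list.

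The 5% of X regions with the highest scores, 53 regions scoring at least 1.48, were found in 20 of the 22 full 1 Mb windows. There were 16 in the telomere-side part of the X, 14 in the middle part and 23 in the centromere-side part. The window from 16000001 to 17000000 had the most, with 7, and the windows from 14000001 to 15000000 and from 21000001 to 22000000 had none. The longest stretch between neighbouring strong regions was 2.02 Mb, from 20383655 to 22408105, close to the centromere side. Of the 53, 19 lay within 50 kb of another one, and 52 were overlapped by both replicate lists. Of the 53, 39 ranked among the 53 highest X regions of replicate 1, 40 among those of replicate 2 and 30 among both. The worst ranks were 96 of 747 and 95 of 726, so none of the 52 was weak in either replicate. The 53 were chosen by a score from the same samples, so these ranks are no independent evidence.

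The widest regions were mostly not the strongest. The widest lay at 9049680 to 9059720 (10041 bp) and scored 0.88. Replicate 2 had 1 region there of 9651 bp with a score of 1.06, where replicate 1 had regions of 5260 and 4337 bp with 0.68 and 0.93. The region at 19494822 to 19503120 (8299 bp, 0.78) spanned 3 regions of replicate 1, with scores of 1.22, 0.85 and 0.74, and 2 of replicate 2, with 1.27 and 0.86. The region at 7824364 to 7832636 (8273 bp) differed from these, since it was strong, with 1.49, and was a single region in both replicates, 6889 bp with 1.62 in replicate 1 and 6815 bp with 1.65 in replicate 2. The region at 4827478 to 4834224 (6747 bp, 0.98) was also a single region in both, with 0.89 in replicate 1 and 1.30 in replicate 2. The fifth, at 11486518 to 11492748 (6231 bp, 1.14), was made of 3 adjoining regions in each replicate list. In all, 27 X regions (2.55%) spanned more than 1 region of a replicate list, with a median width of 4859 bp.

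Regions of the X sat in clusters. A cluster is here a run of at least 5 regions with at most 10 kb between neighbours. There were 60 clusters with 412 regions, or 38.9% of the X regions, on 2.25 Mb, or 10.0% of the X. They were 16.5 to 87.9 kb long, with a median of 32.8 kb, and every one held at least 1 region overlapped by both replicate lists. Another 449 regions formed 170 runs of 2 to 4, and 198 regions (18.7%) stood alone. The telomere-side part of the X had 19 clusters, the middle part 16 and the centromere-side part 25. By the same definition the replicate lists had 35 clusters with 215 regions (replicate 1) and 30 with 180 (replicate 2). Of the 60 clusters, 34 were overlapped by a cluster of replicate 1 and 28 by one of replicate 2.

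The largest cluster had 14 regions from 19576458 to 19664376 and began with 1 of the strongest regions of the X, which scored 1.86. The other scores went down to 0.43, and 6 of the 14 regions were overlapped by both replicate lists. The next had 13 regions from 7781988 to 7864840, 8 of them overlapped by both, and included the wide strong region that begins at 7824364. A cluster of 12 regions lay at 1744074 to 1803932, with 8 overlapped by both and a highest score of 1.30. Clusters of 11 lay at 6148462 to 6198516 and at 11463340 to 11517088. The last was the densest of the 5, with 62.7% of its 53.7 kb covered and a median score of 1.11. It had 10 of 11 regions overlapped by both lists, 12 regions in replicate 1 (median score 1.14) and 14 in replicate 2 (1.17). Its region at 11486518 to 11492748 lay only 19 and 9 bp from its neighbours. Part of the cluster was thus nearly continuous, and its 11 regions need not be separate sites.

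Over all regions, the median score was 0.75 in clusters, 0.82 in runs of 2 to 4 and 0.61 for regions standing alone. Among regions overlapped by both lists alone, regions in clusters were not scored higher than the others. There the median score was 0.98 in clusters (quartiles 0.75 to 1.17, 274 regions), 1.01 in runs of 2 to 4 (0.80 to 1.25, 304 regions) and 1.04 for those standing alone (0.74 to 1.34, 70 regions). These quartile ranges overlap almost wholly. Of the 60 clusters, 15 held at least 1 of the 53 strongest regions. These strongest regions, 5% of all X regions by definition, made up 4.13% of the regions in clusters (17 regions). They made up 6.24% of those in runs of 2 to 4 (28) and 4.04% of those standing alone (8). The share of regions overlapped by both lists also differed. It was 66.5% (61.8 to 70.9) in clusters and 67.7% (63.2 to 71.9) in short runs, but 35.4% (29.0 to 42.2) among regions standing alone. The intervals treat regions as independent. Widths moved with this share and with the score over all regions, at a median of 2181 bp in clusters, 2201 bp in short runs and 1480 bp for regions standing alone, and their part in either was not tested.

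Most gaps between neighbouring X regions were short. Of the 1058 gaps, 631 (59.6%) were at most 10 kb and 130 (12.3%) at most 1 kb, and the median was 6575 bp (quartiles 2314 to 20008). The mean, 18942 bp, was far above the median. There were 37 gaps of at least 100 kb, which together took 5.62 Mb, or 25.1% of the X. In 34 of them neither replicate list had a whole region. The 37 gaps were spread over the arm, with 12 in the telomere-side part, 12 in the middle part and 13 in the centromere-side part. Their total lengths there were 1.76, 1.68 and 2.18 Mb, so the centromere-side part held the most gap sequence of this kind. From 15185624 to 18098534, over 2.91 Mb, no gap reached 100 kb. This was the longest such stretch of the X and held 190 regions, 126 of them overlapped by both lists, at 65.2 regions per Mb.

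**Figure D3:**
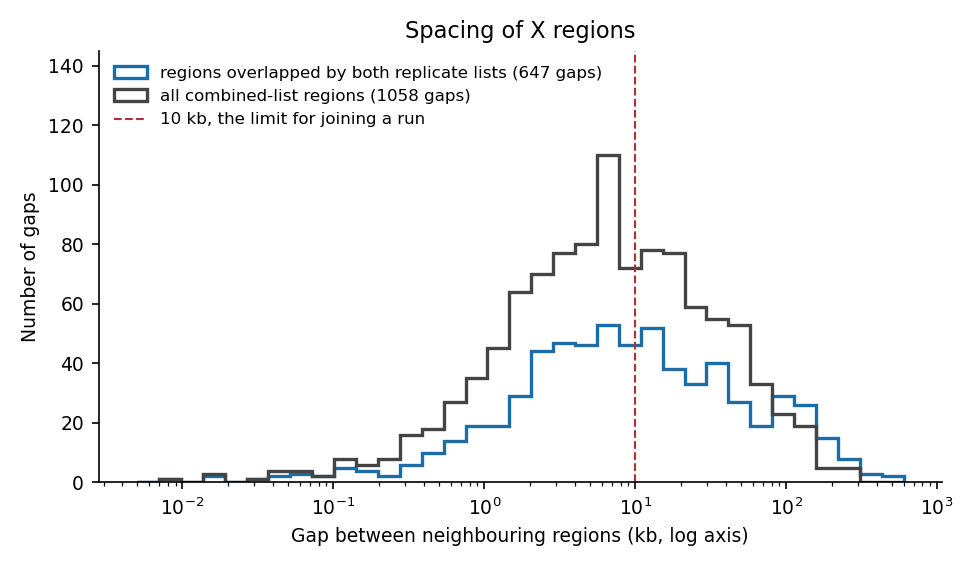
Lengths in kb (log axis) of the gaps between neighbouring X regions, for the 648 regions overlapped by both replicate lists and for all 1059 regions. The dashed line at 10 kb is the limit for joining regions into a run, and 59.6% of the gaps between all regions lie at or below it.

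The 5 longest gaps held no whole region of any of the 3 lists. They ran from 21505013 to 21796873 (292 kb), 22122245 to 22405709 (283 kb), 7231881 to 7513883 (282 kb), 20397237 to 20630589 (233 kb) and 12123281 to 12355895 (233 kb). Thus 3 of the 5 began beyond position 20000001, toward the centromere. The gap that begins at 20397237 had regions overlapped by both lists on either side, with scores of 1.07 and 1.02. The gap that begins at 7231881 was bordered by weak regions that neither replicate list has, with 0.42 and 0.49. Counted between regions overlapped by both lists only, the longest gaps were 462 kb from 21943309 to 22405709, 432 kb from 11924335 to 12355895 and 352 kb from 7219715 to 7571983. These held 3, 4 and 3 combined-list regions, of which 3, 3 and 3 were overlapped by neither list, with scores of at most 0.78, 0.59 and 0.54.

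The replicate lists gave closely similar maps of the X at the scale of windows. Over the 112 windows of 200 kb, rho between their region counts was 0.96. Of the replicate 1 regions of the X, 659 of 747 (88.2%, 85.7 to 90.3) were overlapped by replicate 2, and of the replicate 2 regions 667 of 726 (91.9%, 89.7 to 93.6) by replicate 1. There were 641 pairs in which a replicate 1 and a replicate 2 region met no other. Regions without a partner in the other list are left out, so the score agreement holds for shared regions only. Midpoints within a pair were a median of 61 bp apart, and the paired scores had rho = 0.79 and Pearson's r = 0.81. The replicate 2 score minus the replicate 1 score had a mean of 0.01 with an SD of 0.20 over pairs, and 449 pairs (70.0%) were within 0.2. Along the X the median of that difference stayed between -0.10 and 0.09 over the 22 windows of 1 Mb. Shorter stretches were not compared. The largest single differences in each direction were at 11784995 to 11786956, with 0.64 in replicate 1 and 1.28 in replicate 2, and at 6664026 to 6666239, with 1.17 in replicate 1 and 0.63 in replicate 2.

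**Figure D4:**
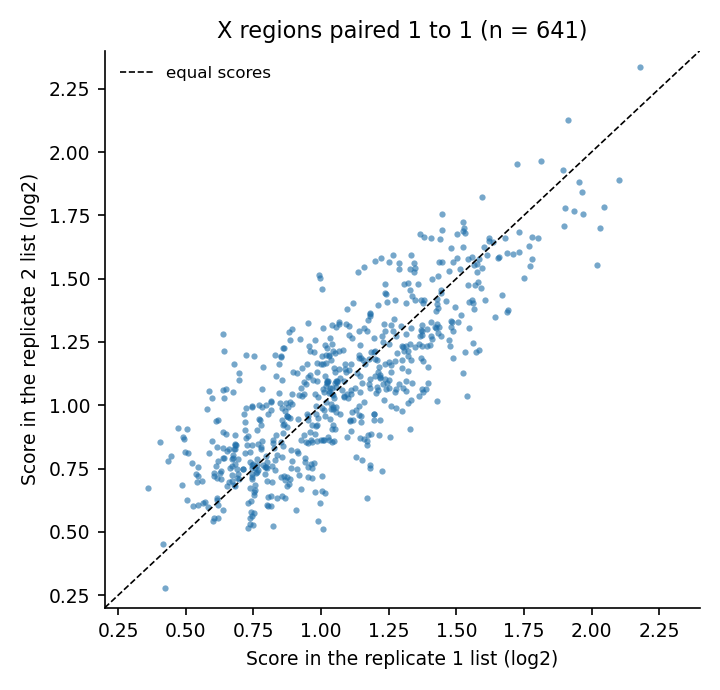
Scores (log2) of the 641 pairs of X regions that overlap 1 to 1, with replicate 1 on the horizontal and replicate 2 on the vertical axis, and a dashed line at equal scores. The pairs lie along the line, with an SD of 0.20 for the difference, and the point farthest to the upper right is the region at 10660576 to 10663716.

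Whether the replicates shared an X region changed abruptly with its score and width. Score, width and overlap come from the same ChIP samples, so this is no independent evidence. Score and width also rose together over all X regions, so the 2 steps below are not separate results. Between scores of 0.5 and 0.6, 30 of 210 regions were overlapped by both lists (14.3%, 10.2 to 19.7). From 0.6 to 0.7 it was 62 of 149 (41.6%, 34.0 to 49.6), and from 0.7 to 0.8 it was 72 of 80 (90.0%, 81.5 to 94.8). In the upper 50% of X scores it was 98.3%. By width, 0 of 264 regions up to 1500 bp were overlapped by both, which allows a share of up to 1.14% by a limit of 3 counts (1.43% by the Wilson interval), and 21 of 134 from 1501 to 2000 bp (15.7%, 10.5 to 22.8). From 2001 to 2500 bp it was 343 of 368 (93.2%, 90.2 to 95.4). The shortest replicate-list region of the whole series was 1301 bp, and that of the combined list was 1001 bp. The narrowest X region overlapped by both was 1735 bp wide, which is above the shortest replicate-list region. Replicate 1 regions of the X had a lower width quartile of 2007 bp, and replicate 2 regions one of 1972 bp. Both quartiles lie near 2000 bp, where the share rose. Whether the usual widths of the replicate lists set the step was not tested.

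**Figure D5:**
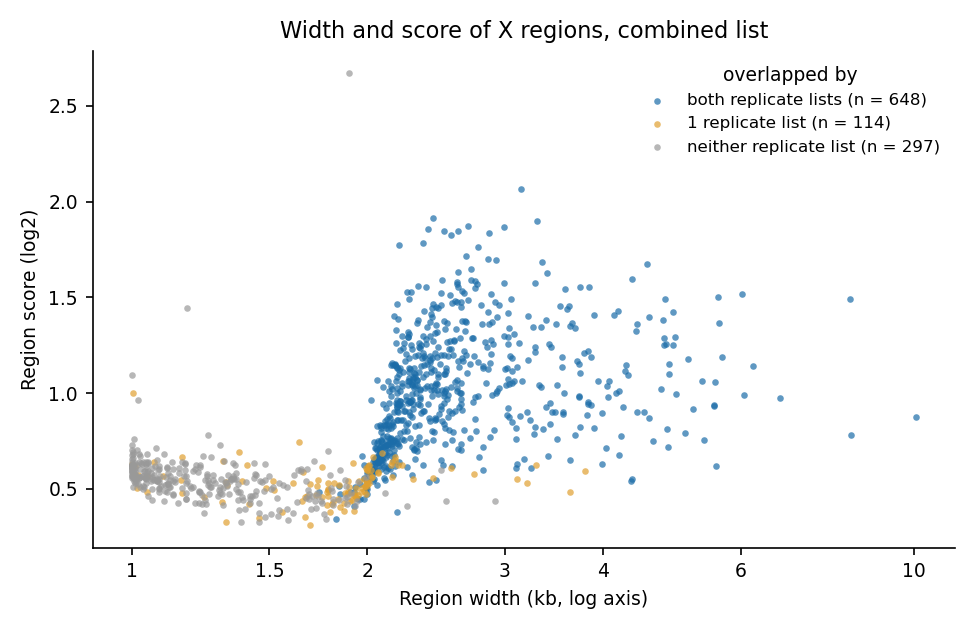
Score (log2) of each combined-list X region against its width in kb (log axis), coloured by the replicate lists that overlap it. Regions overlapped by both lists lie at widths of 1.735 kb or more and those overlapped by neither mostly below 2 kb with scores near 0.55, and a grey point at 2.67 stands far above the other narrow regions.

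The relation of width and score turned at about the same width. Over all 1059 X regions rho between them was 0.73, and over the 648 overlapped by both lists it was 0.50. Among the 661 regions of at least 2 kb, rho between width and score was 0.45. Among the 398 narrower ones it was -0.51, so the narrowest had somewhat higher scores than those just under 2 kb. Median scores were 0.56 up to 1500 bp, 0.48 from 1501 to 2000 bp and 0.89 from 2001 to 2500 bp. They were 1.18 from 2501 to 3000 bp, 1.06 from 3001 to 4000 bp and 1.06 for wider regions. Width and score come from the same calling step of the authors, whose rules stay unnamed in the sources used here.

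The 648 regions overlapped by both lists had a median score of 1.00 (quartiles 0.77 to 1.21) and the 297 overlapped by neither 0.55 (0.49 to 0.60), a difference of 0.45. Their median widths were 2421 and 1177 bp. Of those overlapped by neither, 188 were narrower than any replicate-list region. An exact tie of the score with another region of the combined list was found for 60 of the 648 (9.26%) and 187 of the 297 (63.0%). The 2 kinds also lay differently. In the 200 kb windows, the variance of the counts was 2.76 times the mean for regions overlapped by both (mean 5.76 per window) and 1.19 times for those overlapped by neither (mean 2.65). The number of the 2 kinds in a window had rho = 0.27 over the 112 windows. A thinner set has a ratio closer to 1 at the same unevenness, and that part in the difference was not tested.

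A few regions of the 297 had high scores. The highest score of the X was 2.67, a ratio of 6.36, at 5284738 to 5286634, in a region 1897 bp wide. The nearest regions of replicate 1 and replicate 2 were 27.0 and 27.2 kb away, and 6 regions of the combined list had exactly that score. Next were 10161240 to 10162416 with 1.45 (1177 bp), 13226 to 14226 with 1.10 (1001 bp), 1416854 to 1417872 with 0.97 (1019 bp) and 21957242 to 21958492 with 0.78 (1251 bp). All other regions overlapped by neither scored below these. In the other direction, 12 X regions of replicate 1 and 14 of replicate 2 had no combined-list region, and none of them was shared between the replicates. Their median scores were 0.70 (range 0.66 to 0.97) in replicate 1 and 0.91 (range 0.67 to 1.09) in replicate 2. On the X the combined list thus left out a few regions of each replicate.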

How the data were processed

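The deposited lists give 1 score per region, on a log2 scale read from the values and not named by the authors. Raised as a power of 2, the scores of 1059 of 1059 X regions of the combined list, 747 of 747 of replicate 1 and 726 of 726 of replicate 2 were whole-number ratios times a constant of the list (relative tolerance 1e-09, denominators up to 3000). Bowtie 0.12.7 is named in the submitters' processing notes, and FlyBase release 5 is the genome build per the file headers. The region caller, its threshold and the joining of replicates are steps not given in the sources used here. Differences between replicate scores were computed only for paired regions, and medians of whole lists are given as each list's own.

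A region was assigned to a window by its midpoint. Where several replicate regions overlapped 1 combined-list region, the highest score is given. Named are the 10 highest-scoring X regions that both replicate lists overlap, the 5 highest that neither overlaps, the 5 widest, the 5 largest clusters, the 5 longest gaps and the 3 fullest and emptiest 1 Mb windows. Other positions (the ends, the windows of extreme score, pairs of strong regions, stretches without a long gap, gaps between regions overlapped by both, and the largest replicate differences) were chosen after their values were seen. The X regions and the measures were chosen with earlier results of these data known. The tools were scipy 1.17.1, pandas 2.3.3 and numpy 2.4.6 in Python 3.11.15, with matplotlib 3.10.9 for figures. Simulated lists with known overlap, clusters, gaps and ratios were used to check the code.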

Additional observations from a re-analysis of the deposited data

How the results depend on the processing

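Depth cannot be read from the lists. No paired analysis was possible because no list of an input sample was used and nothing was tested between the groups. The median of 48.5 regions per Mb was 46.0 in windows of 500 kb, 22.5 in the 50% of X regions with the highest scores and 37.5 with a limit on width, which leaves out regions narrower than any of the replicate lists, and 30.0 to 32.5 in the single replicate lists. The variance over the mean of 2.70 was 2.20 in windows of 100 kb, 2.77 in windows of 500 kb and 2.91 with the limit on width, and 2.90 to 3.00 in single replicates. The telomere-side minus centromere-side density of 0.94 per Mb was -0.40 with the limit on width and -2.41 to 0 in single replicates. The rho of score and position was 0.10 over medians of 200 kb windows and 0.028 to 0.075 in single replicates. The share of regions in clusters depends by construction on its limits. It was 12.7% with 5 kb and 68.8% with 20 kb between neighbours, 63.9% with at least 3 and 10.6% with at least 10 regions, 30.9% with the limit on width and 24.8% to 28.8% in single replicates. The longest gap of 292 kb was 291 kb in all 3 lists together, 312 kb with the limit on width and 462 to 463 kb in single replicates, which hold fewer regions. The share of 61.2% overlapped by both lists was 75.6% with the limit on width and 98.3% in the upper 50% of scores. With replicate 1 or 2 alone it was 65.4% to 67.7%. The score difference of 0.45 was 0.51 with the limit on width and 0.10 in the upper 50% of scores, which hold 7 regions overlapped by neither. Agreement of window counts was 0.95 in windows of 100 kb, 0.95 in windows of 500 kb and 0.97 for covered bases. Agreement of scores was 0.81 as Pearson's r. Asking pairs to cover at least 50% of each other left out none of the 641. Causes of these shifts were not tested except where the construction is named.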
